A study of Drosophila melanogaster with 2 samples.

Results

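The 8 Hox genes of the fly are the genes described here: lab, pb, Dfd, Scr and Antp of the Antennapedia complex, and Ubx, abd-A and Abd-B of the bithorax complex. They were chosen by symbol, 8 of 18164 annotated genes, and binding was described in their bodies and in the 6 intervals between neighbours. The data were peak lists from chromatin immunoprecipitation sequencing (ChIP-seq) of HLH3B, a transcription factor of the bHLH family that resembles Tal1. Whole Drosophila melanogaster embryos aged 8 to 24 hours carried an HLH3B-eGFP transgene, and the fusion protein was pulled down with an antibody against GFP. There was 1 group of 2 biological replicates, both with the transgene, and no second condition. The labels do not name the promoter that drove the transgene or the cells it was active in. In whole embryos, strong binding in few cells and weak binding in many cells cannot be told apart.

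Hox genes encode homeodomain transcription factors that give the segments of the body their identity. Their order along the chromosome follows the order of the segments they act in, from head to tail. Large regulatory regions lie in and between the genes. In the bithorax complex these regions are held active or silent by trithorax-group and Polycomb-group proteins and are set apart from each other by boundary elements.

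Thresholded and ranked lists were used, and each gives a signal value for every peak, which is the authors' own. A thresholded list holds peaks with an irreproducible discovery rate (IDR; the lower it is, the better the peak repeats between rankings) of 0.01 or lower, and a ranked list holds all candidates before that threshold. Each replicate had such a pair of lists, and so had each of the 2 sets that combine both replicates. The conservative combined set, with 3846 peaks and a median signal of 139, is called the main set, and the other combined set, with 5814 peaks, the larger set. The replicate 1 and replicate 2 lists held 3992 and 3546 peaks. Ranks are by signal within a list. Depth is unknown, since the lists hold no read counts. No control and no other protein was analysed here. Pull-down of accessible DNA in general and pull-down through HLH3B cannot be told apart.

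HLH3B had 16 main-set sites in the Hox complexes, 7 inside gene bodies and 9 between neighbouring genes. Antp carried 4 sites in its body, Abd-B carried 2 and Ubx carried 1. The interval from abd-A to Abd-B held 4 sites, the interval from pb to Dfd held 3 and the interval from Ubx to abd-A held 2. The bodies of lab, pb, Dfd, Scr and abd-A held none, nor did the intervals from lab to pb, from Dfd to Scr and from Scr to Antp. None of the 16 summits lay in a coding exon, and the share of all main-set summits that do was not computed.

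The sequences of 7 of these sites are shown because they span the range of the findings: the strongest site of each complex, the site at the Dfd start, the only one with the E-box usually given for Tal1, and the extremes of base composition. The windows upstream of bcd and near Abd-B are shown because they hold AGNNGGCG, letters picked after the sequences had been seen. Each is the plus strand of chromosome 3R (dm6) within 50 bp of the main-set summit, read from the RefSeq Release 6 genome. Capitals mark a match on either strand to the E-box CANNTG, the GATA core GATAA, the GAGA factor motif GAGAG, the Pho core GCCAT, the homeodomain core TAATTA, the letters CGATA or the letters AGNNGGCG. Next to Abd-B, matches overlap each other.
Between Ubx and abd-A, chr3R:16798826-16798926: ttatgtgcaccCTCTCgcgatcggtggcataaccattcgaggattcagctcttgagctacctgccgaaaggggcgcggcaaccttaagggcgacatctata
Inside Antp, chr3R:6920139-6920239: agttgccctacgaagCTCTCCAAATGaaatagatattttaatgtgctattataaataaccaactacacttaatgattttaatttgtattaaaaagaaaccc
Upstream of Dfd, chr3R:6791451-6791551: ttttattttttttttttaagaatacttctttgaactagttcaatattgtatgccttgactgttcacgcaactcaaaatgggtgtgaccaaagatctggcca
Upstream of bcd, chr3R:6759596-6759696: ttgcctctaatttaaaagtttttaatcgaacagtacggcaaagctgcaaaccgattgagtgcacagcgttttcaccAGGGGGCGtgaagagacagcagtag
Upstream of abd-A, chr3R:16834774-16834874: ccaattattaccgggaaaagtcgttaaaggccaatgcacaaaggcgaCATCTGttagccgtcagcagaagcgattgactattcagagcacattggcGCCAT
Between abd-A and Abd-B, AT-rich, chr3R:16837963-16838063: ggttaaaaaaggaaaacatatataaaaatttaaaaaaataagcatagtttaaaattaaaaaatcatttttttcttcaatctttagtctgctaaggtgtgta
Between abd-A and Abd-B, near Abd-B, chr3R:16919223-16919323: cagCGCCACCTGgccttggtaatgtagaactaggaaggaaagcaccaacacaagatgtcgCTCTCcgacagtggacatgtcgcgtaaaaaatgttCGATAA

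**Figure D1:**
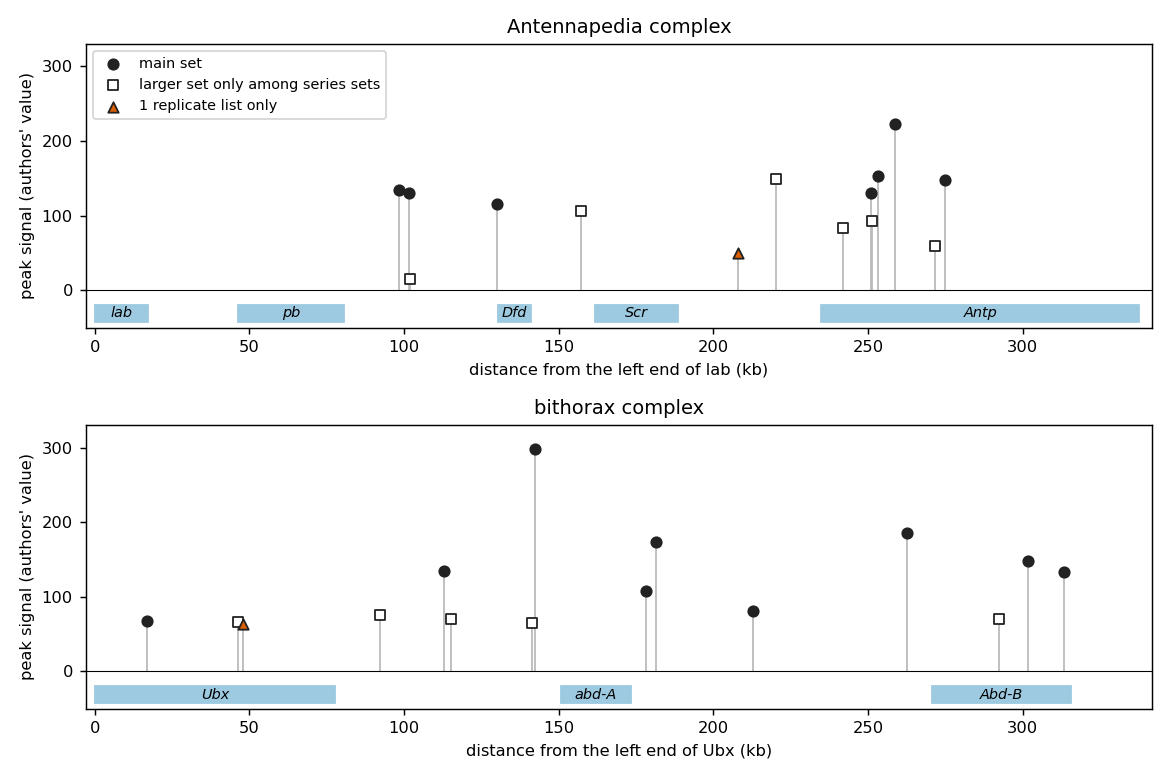
Peak signal (authors' value, y axis) of every thresholded site in the complexes against distance in kb from the left end of lab (top) or Ubx (bottom). Circles are the 16 main-set sites, squares are sites of the larger set alone among the series-level sets, and triangles are sites of 1 replicate list, whose signal is that of the replicate; blue bars are the gene bodies. The highest circle, with a signal of 298, lies between Ubx and abd-A.

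A gene was counted as bound when at least 1 summit fell between its 3′ end and the point 2000 bp upstream of its start. In this way 4 of the 8 Hox genes were bound in the main set: Dfd, Antp, Ubx and Abd-B. On the same count 20.3% of all 18164 genes were bound. Hox genes are long, from 10.6 to 103 kb, and of 1784 protein-coding genes in that range of length 48.7% were bound. The members' count thus lies close to that of genes of like length. The count did not change when any base of the peak sufficed (49.4% of the genes of like length), when candidates past the IDR threshold replaced the list (49.0%), or in the larger set (60.5%, and 27.3% of all genes). Replicate 1 gave 4 (49.9% and 20.7%), and replicate 2 gave 3, without Ubx (47.5% and 19.7%). Giving each site to the nearest start alone, 4 were bound, with abd-A in place of Ubx, beside 37.8% of the genes of like length and 14.8% of all genes. At or above the median signal, Antp and Abd-B were bound, beside 32.6% and 12.7%. Counting summits in gene bodies alone, 3 of 8 were bound, beside 40.8% of the genes of like length and 8.61% of all genes. The gene bodies held 2.07 sites per 100 kb, against 2.96 in genes of like length and 2.56 over all genes. Protein-coding genes of 50 kb or more held 1.86.

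Neither complex stood out by its number of sites. The Antennapedia complex, from lab to Antp (3R 6661427 to 6999228), carried 7 sites, or 20.7 per Mb (exact Poisson 95% interval 8.33 to 42.7). The bithorax complex, from Ubx to Abd-B (3R 16656623 to 16972236), carried 9, or 28.5 per Mb (13 to 54.1). The rest of arm 3R carried 26.6 per Mb (24.9 to 28.5), within both intervals, which cover counting error only. The median signal of the 16 sites was 135, and 7 of them reached the main-set median. Their ranks ran from 611 to 3705 of 3846, with 2 among the strongest 1000.

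The Hox sites lay far from starts more often than not. Of 16 summits, 13 lay more than 1000 bp from any annotated start, and over the whole main set 46.4% did. The median distance to a start was 3.72 kb at the Hox sites and 777 bp over all sites. Of the 3 sites close to a start, 1 was at a Hox gene, Dfd, and the others were at bcd and Ama.

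The first genes along the chromosome, lab and pb, had no thresholded site. lab, which acts in the embryonic head and the midgut (FBgn0002522, 3R 6661427 to 6678590), had no thresholded site in any list. Its strongest candidate in the list behind the main set had a signal of 54.8 and ranked 6804 of 90471. That candidate lay in an intron, 3662 bp inside the gene. The strongest lab candidates of replicates 1 and 2 lay elsewhere in its body, with signals of 32.9 and 29.3. pb, which shapes the adult mouthparts (FBgn0051481, 3R 6707800 to 6742063), had none either. The strongest pb candidate lay in a coding exon with a signal of 60.7 and ranked 5769. It was found in both replicates, at 34.1 and 24.1.

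The interval from pb to Dfd held 3 main-set sites, of which 1 lay at Dfd and the others at bcd and Ama, which are not Hox genes in function. The site at bcd, the anterior determinant of the egg, had its summit 180 bp upstream of the bcd start (3R 6759478 to 6759813, signal 134.7, rank 1993). Its signal was 49.6 in replicate 1 and 89.5 in replicate 2, and it passed the threshold in both. The next site lay in an intron of Ama, which encodes a secreted protein of the immunoglobulin family, 374 bp upstream of another Ama start and inside the non-coding gene lncRNA:CR45593 (3R 6762862 to 6763197, signal 130.5). It had a signal of 69.5 in replicate 1, where it missed the threshold, and 60.0 in replicate 2. The larger set listed a further peak of low signal, 14.8, beside it. The third main-set site is described with Dfd.

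Dfd, the gene of the maxillary and mandibular segments (FBgn0000439, 3R 6791836 to 6802428, plus strand), was the 1 Hox gene with a main-set site within 1000 bp of a start of its own. The summit lay 335 bp upstream of the start (3R 6791333 to 6791668, signal 115.0, rank 2387). The replicates had signals of 58.6 and 56.7 there, ranks 2852 and 2448 of their thresholded lists, so the site passed in both. The larger set's candidate list held 10 candidates in the body of Dfd, replicate 1 held 1 and replicate 2 held 8. The list behind the main set held 3, and the strongest of these had a signal of 30.2 and ranked 25641 of 90471. Most of the body lay in a stretch of 22.7 kb without any candidate in that list (3R 6793827 to 6816501). The absence of a site there was not told apart from an absence of listed candidates. The site thus rests on the region upstream of the gene alone.

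Scr, which acts in the labial segment and the front of the thorax and sets up the salivary glands (FBgn0003339, 3R 6823120 to 6849981), had no thresholded site in its body. Its strongest candidate was intronic with a signal of 46.4 and ranked 9511, with 22.9 and 19.6 in replicates 1 and 2. Sites of other lists lay on both sides of Scr. Between Dfd and Scr the larger set held a site 4.35 kb from the 3′ end of Scr (signal 106). It was past the threshold in replicate 1 with a signal of 73.3 and had no candidate within 100 bp in replicate 2. Between Scr and Antp the larger set held a site in an intron of lncRNA:CR44931 (3R 6881641 to 6881976, signal 149). In replicate 2 its signal was 70.8, and there was no candidate within 100 bp in replicate 1. Replicate 2 alone listed another peak in this interval, with a signal of 50.2, 5206 bp downstream of the ftz start. Each of these sites was thus found in 1 replicate.

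Antp, the gene of the thorax and the longest member (FBgn0260642, 3R 6896253 to 6999228), had the most sites of the 8 genes. All 4 main-set sites lay within 23.7 kb of each other in 1 intron of 60.1 kb, in the part of the gene that the annotation also assigns to CG46458, so the sites cannot be given to 1 of these genes. The strongest (3R 6920112 to 6920244, signal 222, rank 981) lay 12651 bp inside Antp from its nearest start. It had signals of 118 in replicate 1 and 106 in replicate 2, ranks 950 and 1049. The site 18.3 kb from the left end of the gene (signal 153) had 63.4 and 87.6. Both were past the threshold in both replicates. The site 40.0 kb from the left end lay 3462 bp upstream of an internal Antp start (signal 147), with 70.6 in replicate 1, where it missed the threshold, and 76.7 in replicate 2. The site 16.3 kb from the left end (signal 129.7) passed in replicate 2, with 57.4, and had no replicate 1 candidate within 100 bp. Replicate 1 had a peak of its own nearby with a signal of 61.4, which the larger set lists 204 bp away. That peak was 1 of 3 sites that the larger set added in Antp. Another lay 256 bp upstream of the internal start, with a signal of 59.0, and the third lay 7.23 kb from the left end, with 83.2. Having 4 or more main-set sites in a body was seen in 6.11% of the genes of like length, and in 21.2% of the 307 protein-coding genes of 50 kb or more.

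Ubx, which acts in the rear thorax and front abdomen (FBgn0003944, 3R 16656623 to 16734426), had 1 main-set site of low rank. It lay in the long intron of 51.5 kb, 61.0 kb from the Ubx start (3R 16673251 to 16673586, signal 67.1, rank 3705). Its signals of 40.1 and 38.4 in replicates 1 and 2 missed the threshold in both. Elsewhere in the same intron replicate 1 had peaks with signals of 58.0 and 63.1, 31.4 and 30.0 kb from the Ubx start, with no candidate within 100 bp in replicate 2. Thus no Ubx site passed in both replicates.

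The interval from Ubx to abd-A held the strongest site of all Hox sites. It lay 8.34 kb beyond the 3′ end of abd-A and 29.2 kb from the nearest abd-A start. The nearest start of any gene was that of lncRNA:CR45750, with the site 1724 bp upstream (3R 16798812 to 16798970, signal 298, rank 611). The replicates had signals of 136 and 161, ranks 746 and 547, each the highest of its list in the complexes. The interval also holds lncRNA:bxd, a non-coding gene of the regulatory region upstream of Ubx. A site in a lncRNA:bxd intron had a signal of 135, with 63.1 and 69.2 in the replicates (3R 16769428 to 16769763). Both sites passed the threshold in every list. The larger set added 3 sites in this interval. The site 14.4 kb from Ubx, in an intron of lncRNA:bxd (3R 16748620 to 16748955), had a signal of 75.9 and passed in neither replicate's list. The site 37.4 kb from Ubx, also in an intron of lncRNA:bxd (3R 16771624 to 16771959), had a signal of 70.0 and passed in replicate 2, with 38.8. The site 9.18 kb from the 3′ end of abd-A (3R 16797871 to 16798206) had a signal of 64.7 and passed in neither.

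abd-A, the gene of the middle abdomen (FBgn0000014, 3R 16807214 to 16830049), had no site in its body or within 2000 bp upstream. Its strongest candidate was intronic, 1518 bp from a start, with a signal of 43.0 and a rank of 11393. Farther upstream there were 2 main-set sites, 4775 and 7964 bp from abd-A. The nearer one had a signal of 108, with 52.9 in replicate 1 and no candidate within 100 bp in replicate 2. The farther one had a signal of 174, with 98.0 and 82.6, and passed in both replicates. Counting 5000 bp upstream, abd-A was bound and the count of bound members rose to 5 of 8, beside 52.6% of the genes of like length and 27.6% of all genes.

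The interval from abd-A to Abd-B is spanned for most of its length by the non-coding gene lncRNA:iab8, the host of the microRNA gene mir-iab-8. All 4 sites of the interval lay in its introns. All but the site next to Abd-B also lay in introns of another gene, MSAmiP. The sites can thus be given to these genes as well as to abd-A or Abd-B. The site next to Abd-B, 7.94 kb from its 3′ end (3R 16919212 to 16919327, signal 185, rank 1282), had signals of 80.4 and 107. The site in the middle of the interval (3R 16869261 to 16869596, signal 80.9, rank 3415) had 47.5 and 48.0. Both passed the threshold in both replicates. The rest are those upstream of abd-A.

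Abd-B, the gene of the rear abdomen and the genitalia (FBgn0000015, 3R 16927212 to 16972236), had 2 main-set sites in its first intron of 28.5 kb. The site 1935 bp inside the gene from its nearest start had a signal of 148, with 72.7 and 75.7 in the replicates, and passed in both. The site 1487 bp upstream of another internal start had a signal of 134, with 88.0 in replicate 1 and 38.9 in replicate 2, where it missed the threshold. The larger set added 1 site in the gene, 21.7 kb from its left end, with a signal of 70.6, which passed in neither replicate's list.

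**Figure D2:**
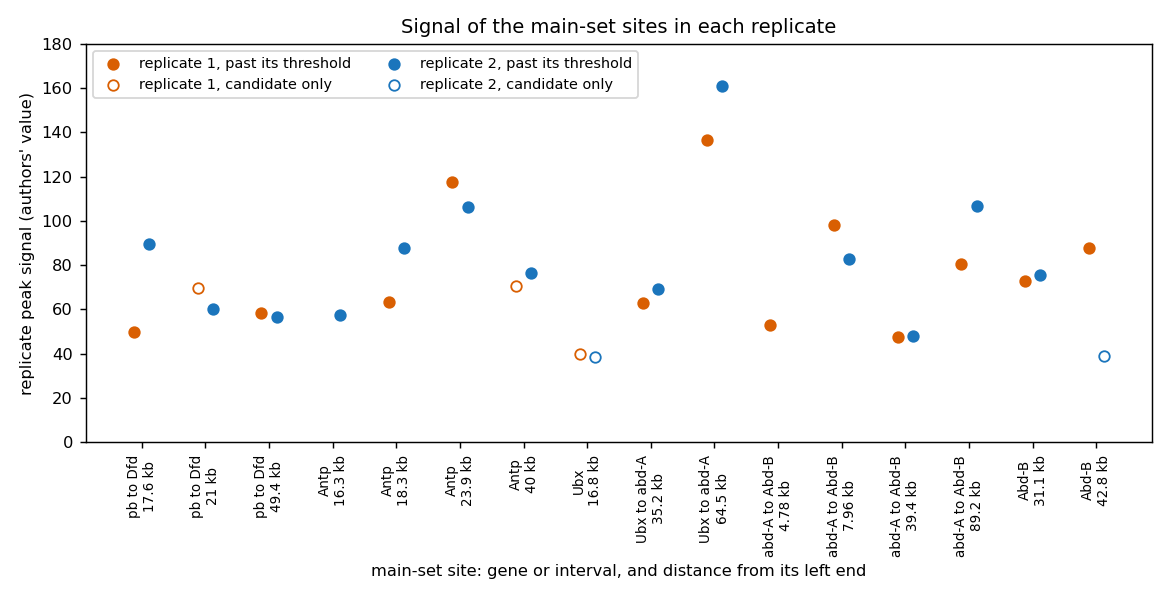
Replicate peak signal (authors' value, y axis) at each of the 16 main-set sites, in chromosome order (x axis), for the strongest candidate within 100 bp; filled points passed the threshold of the replicate's own list and open points did not. The 3 sites with a signal above 100 in at least 1 replicate lie in Antp, between Ubx and abd-A and next to Abd-B.

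Most of the 16 main-set sites in the complexes passed in both replicates. The same shares over the whole main set were not computed. Of 16 sites, 10 passed the threshold in both replicates, 2 in replicate 1 alone, 3 in replicate 2 alone and 1 in neither. A candidate within 100 bp was found in both replicates at 14 sites. Since peaks entered the main set by how well the replicates' rankings matched, these counts are a description and no test of repeatability. Bound in all 4 thresholded lists were 3 members, Dfd, Antp and Abd-B, beside 40.0% of the genes of like length and 15.0% of all genes. Bound in at least 1 list were 4, beside 63.3% and 29.2%. Over all 4 lists, summits no more than 100 bp apart being taken as 1 site, there were 29 sites in the complexes, 10 of them in all 4 lists and 7 in 1 list.

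The strongest candidate of each gene body gave an order of the genes in every list. In the candidate list behind the main set, the strongest candidates of Antp and Abd-B ranked 1010 and 1842 of 90471, ahead of Ubx at 5032, pb at 5769 and lab at 6804. Scr at 9511, abd-A at 11393 and Dfd at 25641 came last. The order was the same in the larger set's candidates and in replicate 1, and in replicate 2 abd-A came ahead of lab and Scr. The order was not adjusted for gene length or for the number of candidates, from which the strongest is picked. In the list behind the main set, Antp held 102 candidates, Ubx 55, Abd-B 39, pb 26 and lab 22. abd-A held 18, Scr 17 and Dfd, the shortest, 3. With 1 value per replicate, neighbours in this order were not tested against each other. The median best signal was 57.7 over the 8 genes, 72.3 over genes of like length and 35.8 over all genes with a candidate. Of 476 candidates in the complexes, 16 passed the IDR threshold, or 3.36%, beside 4.36% of all candidates.

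**Figure D3:**
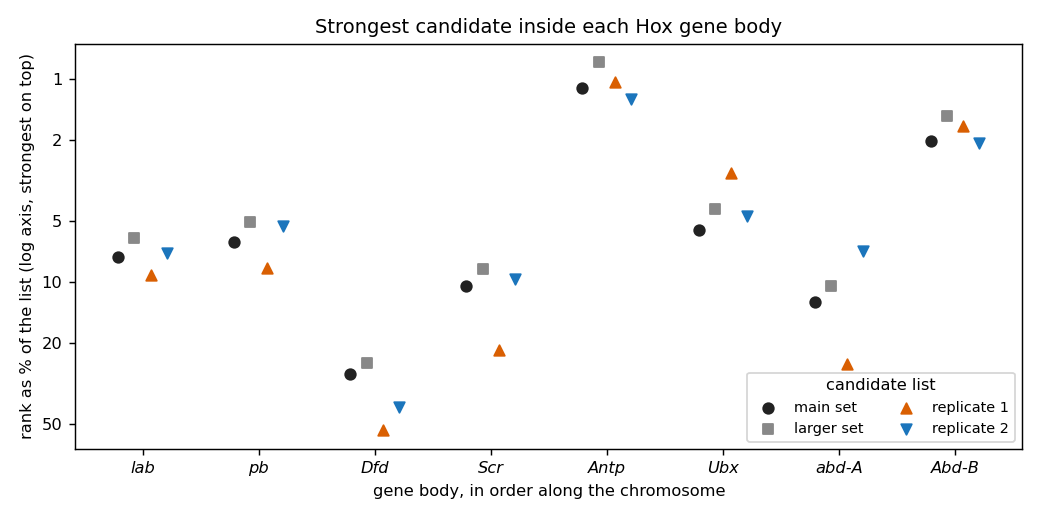
Rank of the strongest candidate in each Hox gene body as a percent of its list (y axis, log scale, strongest on top), by gene along the chromosome (x axis) and by candidate list. Antp and Abd-B lie on top in every list, and Dfd lies lowest in every list. Ranks are not adjusted for gene length or for the number of candidates in a body.

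Candidates were spread unevenly, and the replicates were uneven in different places. Between Dfd and Scr replicate 1 had 23 candidates and replicate 2 had 1. Between Scr and Antp replicate 1 had 3 and replicate 2 had 35. The sites that the main set lacks there lay in stretches without any candidate of the other replicate. Replicate 1 had none over 35.6 kb around both sites between Scr and Antp, and replicate 2 had none over 12.9 kb around the site between Dfd and Scr. The replicate 1 sites in Ubx lay in a stretch of 20.9 kb without any candidate of replicate 2. The list behind the main set had no candidate over 21.3 kb from the lab to pb interval into pb, and none over 22.7 kb from inside Dfd towards Scr. Such stretches of 10 kb or more were common on the whole arm. In the list behind the main set they covered 46.5% of 3R and 39.5% of the complexes, and in replicates 1 and 2 they covered 43.2% and 15.4% of 3R. The absence of a site there was not told apart from an absence of listed candidates, and the part of depth was not tested.

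**Figure D4:**
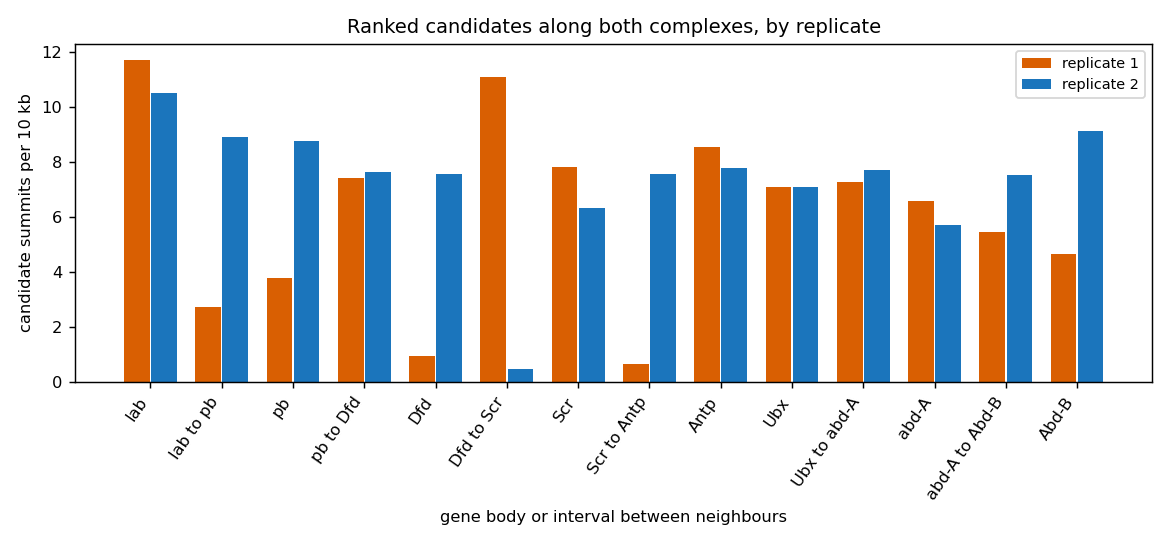
Candidate summits per 10 kb (y axis) in each gene body and interval along the chromosome (x axis), for replicate 1 and replicate 2. The bars differ most between Dfd and Scr, at 11.1 against 0.483, and between Scr and Antp, at 0.648 against 7.56.

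Summits were poorer in G+C than their flanks at most main-set sites of the genome, and at all sites inside Hox gene bodies. All 7 summits in Hox gene bodies had a lower G+C content than the sequence 250 to 350 bp away. So did 83.8% of the 2260 main-set summits in protein-coding gene bodies. They ran from 23.8% in Antp to 35.6% in Abd-B. Of the 9 summits between Hox genes, 6 had a higher G+C content than their flanks, at the lncRNA:bxd site by little (32.7% against 32.0%). Of the 1586 main-set summits outside protein-coding gene bodies 19.2% did, of those inside such bodies 16.2% did, and of all 3846 main-set summits 17.4% did. Neither of the first 2 classes matches the 9 summits, since some of these lay in introns of other genes, Ama and MSAmiP. The strongest site, between Ubx and abd-A, had 54.5% against 31.0%. The site next to Abd-B had 48.5% against 28.0%. The site upstream of abd-A that is nearer to the gene had 47.5% against 30.0%. Over all 16 windows the mean was 34.7% ± 11.2 (SD across windows), and over all 3846 main-set windows it was 32.6% ± 9.49. A G+C content of 45% or more was found in 5 of 16 Hox windows and in 11.4% of all. These comparisons were chosen after the sequences were seen, so they are a description.

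**Figure D5:**
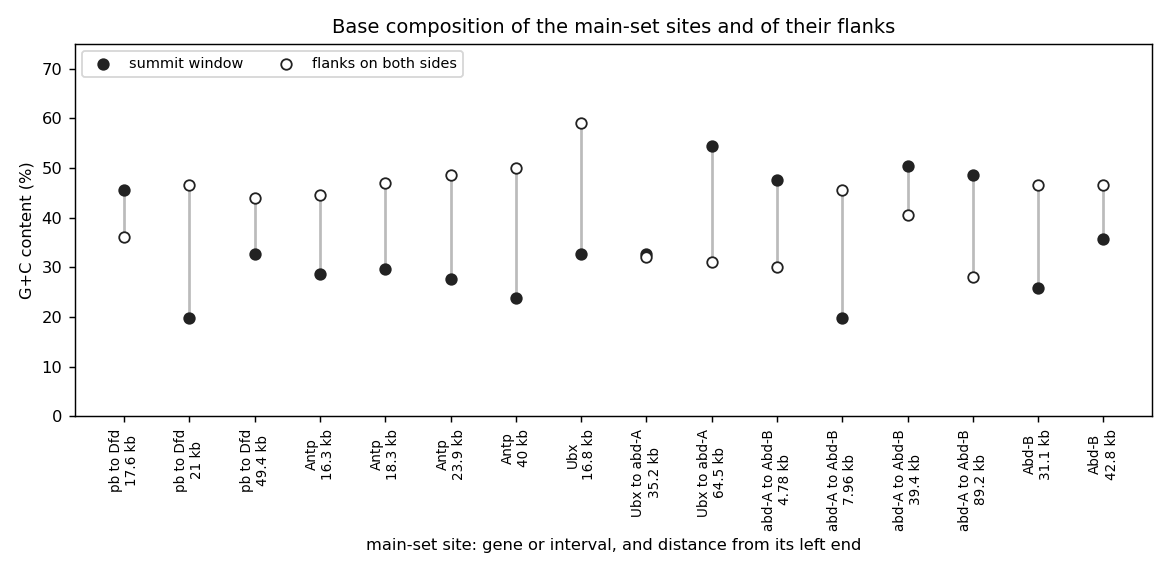
G+C content in percent (y axis) of the 101 bp around each main-set summit (filled) and of its flanks (open), by site in chromosome order (x axis). Filled points lie below open points at all 7 sites in Hox gene bodies and above them at 6 of 9 sites between Hox genes, some of which lie inside other genes.

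The E-boxes CAGATG and CAGCTG were in few Hox windows and in few windows of the whole main set. CAGATG, the E-box usually given for Tal1 and its partners, was in 1 of 16 windows, the one upstream of abd-A shown above (as CATCTG), and in 2.81% of all main-set windows. CAGCTG was in none and in 2.89% of all. Any E-box, CANNTG, which includes both, was in 6 of 16 and in 33.2% of all. GATAA, a core of GATA factor sites, was in 2 of 16 and in 22.6% of all. CGATA, which can overlap GATAA, was in 1 and in 12.3%.

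GAGAG, the motif of the GAGA factor encoded by the trithorax-group gene Trl, was in 6 of 16 windows, beside 8.48% of all main-set windows and 8.21% of those on 3R. Of the 6, 2 were in Antp, 1 was in Abd-B and 3 were between genes of the bithorax complex, among them the strongest site. The Pho core GCCAT was in 2 windows and in 12.5% of all. The homeodomain core TAATTA was in 1 window, in Abd-B, and in 10.4% of all. TTAAAA was in 8 windows (50%) and in 35.4% of all, and with windows of 201 bp it was in 8 and in 51.5% of all. The letters AGNNGGCG, chosen after the sequences had been seen, were in 2 windows, upstream of bcd and next to Abd-B, and in 3.15% of all. With windows of 201 bp, GAGAG was in 8 of 16 and in 21.9% of all. At that width any E-box was in 7 of 16 (43.8%) and in 59.2% of all, so its share turned from above to below that of the whole set. TAATTA was in 5 of 16 (31.2%) and in 17.7% of all at that width, and so turned the other way. Both strands were searched. A match describes the sequence and is no evidence of a bound factor.

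The narrowest sites were also the strongest. The main-set peaks with a signal of 298, 222 and 185 were 159, 133 and 116 bp wide, and the 13 others were 336 bp wide each. Over the whole main set, 19.9% of the peaks were narrower than 200 bp, with a median signal of 236 against 119 for the rest.

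Lists of Hox regulators, cofactors and targets and of other genes of the complexes held 71 genes that matched the annotation. Of these 21 were bound (29.6%), beside 20.3% of all genes. Long genes were bound more often: 48.7% of the protein-coding genes in the Hox genes' length range were bound, and the median length was 1.66 kb over all genes. The lists differ in length, so their shares are not set against each other. Of 13 trithorax-group genes, which keep Hox genes active (median length 12.8 kb), 7 were bound, led by Trl (signal 1043), the chromatin remodelling genes osa (961) and brm (933), and kis (331). Of 17 Polycomb-group genes, which keep them silent (median 5.22 kb), 6 were bound, among them ph-p (1959), phol (1060), the histone methyltransferase gene E(z) (441) and Psc (420). Of 6 Hox cofactor genes (median 7.47 kb) 1 was bound, hth (241), whose protein brings the cofactor Exd into the nucleus. None of 12 gap and pair-rule regulators (median 2.79 kb) was bound in the main set. Of 14 Hox target genes (median 15 kb) 4 were bound, dpp (322), ct (179), wg (119) and srp (81.5). Of the 4 other homeobox genes of the Antennapedia complex, bcd was bound, and of 6 non-coding genes lncRNA:iab8 (185) and lncRNA:bxd (135) were, through sites given above.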

How the data were processed

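The members and gene lists were chosen with earlier results of these data known. Peaks had coordinates on dm6, per the labels. Each peak carries a signal value deposited by the authors on an unstated scale, used here for ranks and levels inside 1 list. The score in the thresholded lists was deposited as a whole number, the IDR rescaled, and was not analysed. The −log10 IDR of the candidates was also the authors' value, and 2 or more counted as past the threshold. Aligner and peak caller: not given in the sources used here. Depth per replicate is unknown. Per the deposited text notes, a further input file went into the thresholded lists but not into the candidates.

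Genes came from Ensembl release 115 (BDGP6.54) on 6 arms without transposable elements, and all 8 Hox genes had the same coordinates in RefSeq. Sites were placed by summit. The text names all 8 genes, the thresholded sites in the complexes, the strongest candidate of genes without one, and up to 4 bound members per list. Of 74 list entries 2 found no match, and 1 gene stood in more than 1 list. With 1 group and no chance test over genes, no p-value is given. Assignment of sites was tested on simulated data. Scripts ran in Python 3.11.15 (pandas 2.3.3, numpy 2.4.6; exact intervals with scipy 1.17.1; plots with matplotlib 3.10.9).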

Additional observations from a re-analysis of the deposited data

How the results depend on the processing

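The count of bound members was 4 and lay between 3 and 5 in 8 of 9 alternatives. It was 2, Antp and Abd-B, with main-set peaks at or above the median signal. That limit left 4 sites in gene bodies and 3 between neighbours, with 8.88 and 12.7 sites per Mb in the Antennapedia and bithorax complexes. The larger set gave 12 sites in bodies, 15 between neighbours, and 38.5 and 44.4 per Mb, beside 40.7 on the rest of 3R. Each replicate alone gave 3 to 4 bound members, 6 to 7 sites in bodies, 9 to 11 between neighbours, 17.8 to 29.6 and 22.2 to 31.7 sites per Mb (in replicate 2 the Antennapedia complex had the higher value, 29.6 against 22.2, beside 25 on the rest of 3R), 21 to 23 bound genes of the other lists, and a median best rank of 6.17 to 8.93% of the candidate list. No Ubx site remained without replicate 1. Giving each site to the nearest start alone kept 4 members but replaced Ubx by abd-A. Candidate summits within 50 or 250 bp were in both replicates at 13 and 15 of 16 sites. With 201 bp windows the Pho core GCCAT was at 5 sites (25.4% of all main-set windows), the homeodomain core TAATTA at 5 (17.7%), the letters CGATA at 2 (25.4%), any E-box at 7 (59.2%) and GATAA at 3 (39.1%). TTAAAA stayed at 8 sites at that width (51.5%). No paired analysis was possible because there was 1 group.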

Other observations

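Sites also lay just outside the bithorax complex. The strongest within 20 kb of it had a signal of 287 (3R 16986553 to 16986736, rank 652), 14.4 kb beyond Abd-B and 182 bp inside CG18622, with signals of 139 and 150 in replicates 1 and 2. A second main-set site in CG18622 had a signal of 109.5. On the Ubx side, a main-set site 140 bp upstream of CG10324 had a signal of 133. Closer to Ubx, 0.786 kb beyond it, the larger set held a site 175 bp upstream of modSP, with 82.8. That site passed in replicate 1, with 65.1, and was not in the main set. No thresholded site of any list lay within 20 kb outside the Antennapedia complex.

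The letters AGNNGGCG, part of the sites usually given for the insulator protein CTCF, were picked from the Hox windows themselves, so their counts are a description and support nothing. With windows of 201 bp they were in 4 of 16 Hox windows and in 6.24% of all main-set windows.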
